A study of Homo sapiens with 4 samples.

Results

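The genes described here are 9 genes of antigen presentation by MHC class I, of 20323 genes in the deposited table, measured by RNA sequencing in NK-92 cells with and without a hairpin against ADAR1. They were chosen by name: the class I heavy chains HLA-B, HLA-C, HLA-E and HLA-F, their light chain B2M, the peptide transporter genes TAP1 and TAP2, the transporter-associated chaperone TAPBP, and the transcriptional regulator NLRC5. The rule names genes by their role and sets no threshold on a measured value, although earlier results of these data were known when it was written. Each gene was found by its Ensembl identifier. All 9 were among the 11810 genes with enough counts to be tested. NK-92 is an established line of human natural killer cells that depends on interleukin 2, and the study asked what loss of ADAR1, an adenosine deaminase that edits double-stranded RNA, does to such cells. The 2 shscramble libraries came from NK-92 cells transduced with a lentivirus carrying a scrambled hairpin, and the 2 shADAR1 libraries from the same line transduced with a lentivirus carrying a hairpin against ADAR1. Both groups therefore carry an integrated lentivirus and were grown in interleukin 2. The study names hairpin shADAR1-2 for the sequenced cells and the series calls the libraries of a group independent biological replicates, so the shADAR1 libraries, numbered 1 and 2 in the labels, were read as replicates of that 1 hairpin.

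MHC class I molecules show peptides from inside the cell to CD8 T cells, and natural killer cells read the same molecules on other cells through inhibitory receptors. A heavy chain folds with beta 2-microglobulin in the endoplasmic reticulum, where TAP1 and TAP2 together pump in peptides from the cytosol and TAPBP (tapasin) holds the empty molecule at the transporter until a peptide fits. HLA-E presents mostly leader peptides of other class I chains to the NKG2A and NKG2C receptors, and HLA-F is a less variable class I chain. NLRC5 switches on class I genes from a promoter module that binds RFX, CREB/ATF and NF-Y factors, and interferon raises the same genes through response elements close by.

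The hairpin was read first from its target. ADAR was present at 655 and 682 CPM in shscramble replicates 1 and 2 and at 575 and 482 CPM in shADAR1 replicates 1 and 2. CPM is the deposited estimated count of a gene per 1000000 counts of its library, with library sizes scaled by TMM, a factor that evens out composition between libraries. Both shADAR1 libraries lay below both shscramble libraries, with a log2 fold change of -0.34 ± 0.20 (SE, n = 2 and 2 libraries), and the difference did not pass the test (adjusted p = 1.00, unadjusted p = 0.127, edgeR's quasi-likelihood test). The fold change was -0.22 without shADAR1 replicate 2 and -0.47 without shADAR1 replicate 1. The study reported the knockdown separately, by qRT-PCR and western blotting. Library totals ran from 37881704 to 39960491 estimated counts. The correlation of log2 CPM was 0.981 between the replicates of either group and ranged from 0.981 to 0.989 between libraries of different groups, so replicates were no more alike than libraries of different groups. Summed natural killer cell markers stood at 4961 to 5630 CPM, with NCAM1 (CD56) at 573 to 695 CPM. Of the T cell markers, TRAC was read at 101 to 141 CPM while CD3D did not pass 0.610 CPM and CD8B was at 0 counts in all 4 libraries. Summed markers of B cells, of myeloid cells, and of epithelial cells, fibroblasts and melanoma did not pass 4.31 CPM in any library.

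Short elements in the promoters of the class I genes are shown next. They were looked up when the lower values of most of these genes in the shADAR1 libraries were already known. What part these elements have in the measured values was not tested. RefSeq promoter windows on GRCh38.p14, here the 250 bases before a start site, were at hand for 7 of the 9 genes in 8 windows, and not for HLA-E or NLRC5. The extra window, from another start site of a gene already counted, held no match to any motif named below. All sequences are written 5′ to 3′ on the strand of the gene, and capitals mark matches, on either strand, to the motifs named after them.
HLA-B, chr6:31357223-31357363, minus strand: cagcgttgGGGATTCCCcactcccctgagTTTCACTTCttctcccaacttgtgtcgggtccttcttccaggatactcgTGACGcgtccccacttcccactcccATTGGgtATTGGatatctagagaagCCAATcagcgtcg
HLA-C, chr6:31272136-31272292, minus strand: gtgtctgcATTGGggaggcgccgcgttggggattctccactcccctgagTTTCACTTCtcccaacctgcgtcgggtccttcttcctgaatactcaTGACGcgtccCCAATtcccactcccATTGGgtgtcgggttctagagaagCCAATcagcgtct
B2M, chr15:44711365-44711480, plus strand: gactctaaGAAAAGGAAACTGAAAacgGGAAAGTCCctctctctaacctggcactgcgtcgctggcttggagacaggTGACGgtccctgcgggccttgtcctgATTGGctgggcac
For the genes whose windows run into annotated first exons, 30 bases around the interferon-stimulated response element are given.
HLA-F, chr6:29723268-29723297, plus strand: ctccccagagTTTCTCTTTCtctcccaacc
TAP1, chr6:32853816-32853845, minus strand: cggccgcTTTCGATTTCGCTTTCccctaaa
TAP2, chr6:32838778-32838807, minus strand: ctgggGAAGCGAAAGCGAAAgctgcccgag
TAPBP, chr6:33314079-33314108, minus strand: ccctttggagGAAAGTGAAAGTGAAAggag

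The core of the interferon-stimulated response element (GAAANNGAAA) was found in the windows of B2M, HLA-F, TAP1, TAP2 and TAPBP, and in 3.02% of all 35116 promoter windows. In B2M, TAP1 and TAPBP 2 such matches overlapped. A form shorter by 1 base (GAANNGAAA) stood in HLA-B, HLA-C and TAP2 and in 6.56% of all windows, and in TAP2 it overlapped the longer match. The core site of CREB/ATF factors (TGACG) was in the windows of HLA-B, HLA-C, B2M and TAP2 against 21.2% of all windows, and the inverted CCAAT box that NF-Y binds (ATTGG) in those of HLA-B, HLA-C, HLA-F, B2M and TAP1 against 32.0%. A kappa B site (GGGATTCCC) was found in HLA-B and in 0.362% of windows, and another (GGACTTTCC) in B2M and TAP1 and in 0.333%. The HLA-B and HLA-C windows were 89.0% identical when aligned, and the HLA-F window was 80.4% identical to that of HLA-B and 78.7% to that of HLA-C, so matches in these windows are not independent. Each match is a match of letters and not a measured binding site.

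Across the class I genes no single difference passed the test, although most of them lay lower in the shADAR1 libraries. With calls made at an adjusted p under 0.05 and at least a 1.5-fold difference, edgeR called 0 of the 9 genes, where 0% of all tested genes were called, and DESeq2 called 0 of 9 and 0 of all genes as well. The study itself reported differentially expressed genes from DESeq2 at these thresholds, which the fit here did not recover. Why the 2 results differ was not tested. At an unadjusted p under 0.05, 1 of the 9 (TAP1) was lower by either tool, where 0.779% of all tested genes were lower at that level by edgeR. The log2 fold change was below 0 for 9 of 9 genes, with a median of -0.25 beside 0.00 over all tested genes, whose quartiles were -0.14 and 0.16, and -0.026 over the 4373 tested genes with a mean of at least 50 CPM. For 6 of 9 genes both shADAR1 libraries lay below both shscramble libraries, against 12.6% of all tested genes and 14.6% of those with a mean of at least 50 CPM. For 0 of 9 did both lie above, against 13.3%. These genes are neighbours in function and partly in the genome, 7 of them on chromosome 6, so they are not independent observations of the knockdown. In bulk RNA, fewer cells expressing a gene and less of its RNA per cell cannot be told apart.

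**Figure D1:**
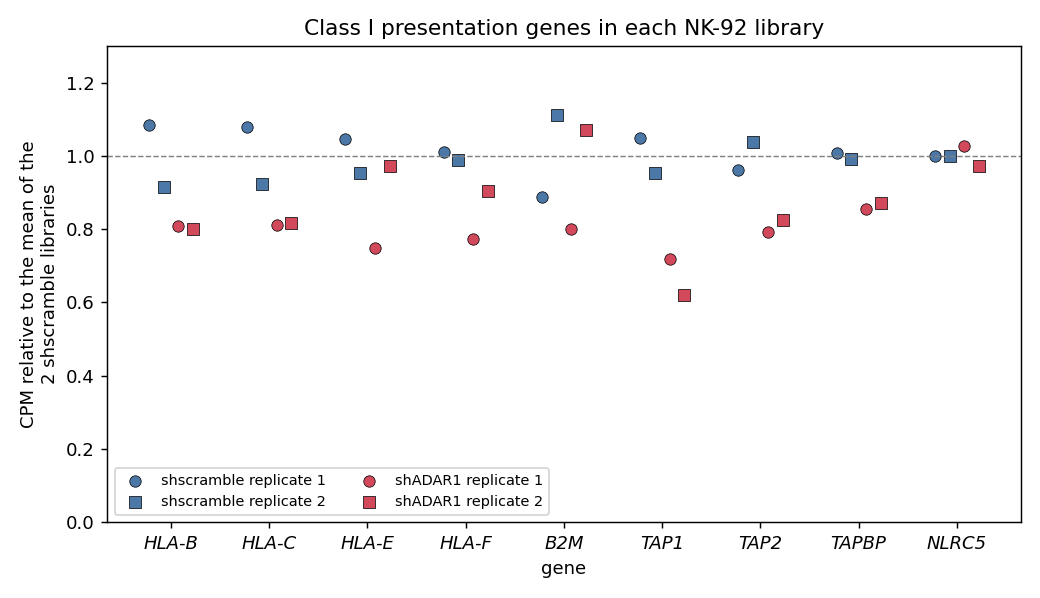
CPM of each class I gene in each library, divided by the mean of the 2 shscramble libraries; circles are replicate 1, squares replicate 2, blue shscramble and red shADAR1. Both red points lie below both blue points for HLA-B, HLA-C, HLA-F, TAP1, TAP2 and TAPBP, and the groups overlap for HLA-E, B2M and NLRC5.

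Among the heavy chains, HLA-B and HLA-C, classical chains that present peptides to T cells and to killer immunoglobulin-like receptors, were the most abundant. HLA-B measured 2202 and 1858 CPM in shscramble replicates 1 and 2, and 1641 and 1627 CPM in shADAR1 replicates 1 and 2. The 2 shADAR1 values were close together and lay below both controls, which differed more from one another. Mean CPM was 2030 ± 243 in shscramble and 1634 ± 10.5 in shADAR1 (SD, n = 2 each), a difference of -19.5% and a log2 fold change of -0.31 ± 0.21 (SE, unadjusted p = 0.167, edgeR). Without shscramble replicate 1, the higher control, it was -0.19. HLA-C, transcribed from the same strand nearby, measured 1249 and 1069 CPM in shscramble and 941 and 945 CPM in shADAR1, again with no overlap. Its log2 fold change was -0.30 ± 0.21 (SE), and -0.18 without shscramble replicate 1. The ratio of HLA-B to HLA-C CPM hardly varied, at 1.76 and 1.74 in shscramble and 1.75 and 1.72 in shADAR1. In GENCODE 29 on GRCh38 the annotated span of HLA-B (chr6:31269491-31357188) runs across HLA-C (chr6:31268749-31272130), although 0 of 1448 windows of 100 bases of the longest coding HLA-B transcript and 4 of 1455 of HLA-C occurred in another gene. Class I chains also vary between people, and how reads of the alleles of NK-92 were matched to the reference is not given in the sources used here.

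HLA-E, the chain read by NKG2A, measured 1113 and 1015 CPM in shscramble and 796 and 1035 CPM in shADAR1. The groups overlapped, since shADAR1 replicate 2 stood between the controls. The log2 fold change of -0.22 ± 0.22 (SE) was -0.42 without shADAR1 replicate 2 and -0.039 without shADAR1 replicate 1, so the library left out decided its size. HLA-F measured 175 and 172 CPM in shscramble and 134 and 157 CPM in shADAR1, without overlap and with a log2 fold change of -0.25 ± 0.19 (SE). It was -0.15 without shADAR1 replicate 1. Summed over the 4 chains, the heavy chains stood at 4740 and 4115 CPM in shscramble and 3513 and 3764 CPM in shADAR1.

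B2M, the light chain of class I molecules, showed no separation of the groups. It measured 3192 and 4001 CPM in shscramble and 2881 and 3852 CPM in shADAR1. The libraries parted by replicate number rather than by hairpin, with both replicate 2 libraries above both replicate 1 libraries. The log2 fold change was -0.095 ± 0.24 (SE) and turned to 0.10 without shADAR1 replicate 1 and to 0.071 without shscramble replicate 2. The range of 2 standard errors on either side was -0.57 to 0.38, so a difference of the size seen in the heavy chains could not be told from none. The ratio of B2M to summed heavy chain CPM was 0.674 and 0.973 in shscramble and 0.820 and 1.02 in shADAR1, which overlap. The transcript length implied by the deposited count and FPKM of B2M was 916 and 834 bases in the replicate 1 libraries and 735 and 727 bases in the replicate 2 libraries, beside 2548 bases for HLA-E in all 4. It also moved with the replicate number, but the other way, in HLA-C (1300 and 1280 bases in the replicate 1 libraries, 1428 and 1460 in the replicate 2 libraries) and TAP2 (4916 and 4863 bases against 5250 and 5142). NLRC5 had 5086 and 5283 bases against 5358 and 5453. The implied length affects FPKM directly, and its part in the differences between replicates was not tested.

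**Figure D2:**
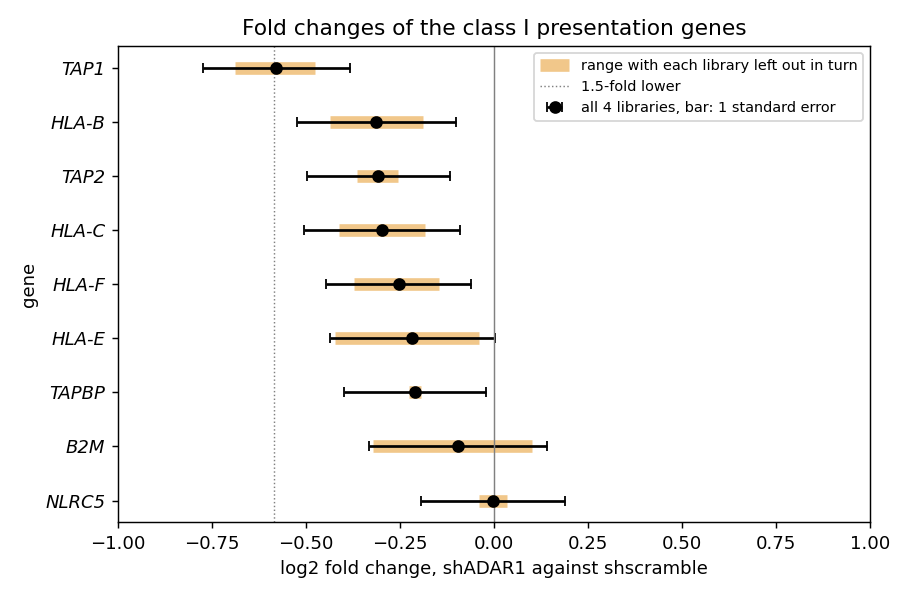
Log2 fold change of each class I gene, shADAR1 against shscramble, from edgeR with all 4 libraries (points, bars of 1 standard error) and the range when each library was left out in turn (orange bands). TAP1 lay furthest from 0 at -0.58, the bands of B2M and NLRC5 crossed 0, and the dotted line marks a fold change of 1.5.

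The peptide transporter held the largest difference of the set. TAP1, which forms the transporter together with TAP2, measured 265 and 242 CPM in shscramble and 182 and 157 CPM in shADAR1. The gap between the groups was wider than the spread within either. Mean CPM was 253 ± 16.9 in shscramble and 170 ± 17.9 in shADAR1 (SD, n = 2 each), a difference of -33.0%. The log2 fold change was -0.58 ± 0.19 (SE) with an unadjusted p of 0.0136 and an adjusted p of 1.00 in edgeR, and -0.58 with an unadjusted p of 0.00590 in DESeq2. It stayed between -0.69 and -0.48 when each library was left out in turn, and 2.00% of tested genes had a lower value. TAP2, its partner, measured 281 and 304 CPM in shscramble and 232 and 242 CPM in shADAR1, also without overlap, with a log2 fold change of -0.31 ± 0.19 (SE). The CPM ratio of TAP1 to TAP2 was 0.943 and 0.794 in shscramble and 0.787 and 0.650 in shADAR1, so shscramble replicate 2 and shADAR1 replicate 1 hardly differed in it. TAP2 shares 35.2% of the 100-base windows of its longest coding transcript with other genes, chiefly the overlapping AL669918.1 on the same strand. That gene had 14.3 and 15.4 CPM in shscramble and 15.1 and 17.7 CPM in shADAR1. Adding it to TAP2 moved the log2 ratio of the group means from -0.31 to -0.28.

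TAPBP, the chaperone that bridges the transporter and the empty class I molecule, had the closest replicates, over both groups, among the genes without overlap. It measured 291 and 287 CPM in shscramble and 247 and 252 CPM in shADAR1. The log2 fold change was -0.21 ± 0.19 (SE), between -0.23 and -0.20 with each library left out. The standard error is larger than these values alone would give, since the fit shares its estimate of the spread over all genes. NLRC5, the regulator, measured 76.2 and 76.3 CPM in shscramble and 78.2 and 74.1 CPM in shADAR1. The log2 fold change was -0.0022 ± 0.19 (SE), with 2 standard errors on either side spanning -0.39 to 0.38. Its shADAR1 libraries lay on either side of both controls, and the sign of its fold change was positive under upper quartile scaling, with a stricter count filter and without shADAR1 replicate 2.

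Each shADAR1 library was also set against the controls on its own, a comparison added after the data were seen. Replicate 1 lay below both shscramble libraries for 8 of 9 genes, all but NLRC5, against 33.6% of all tested genes. Replicate 2 did so for 7 of 9, all but HLA-E and B2M, against 29.3%. The median of the 9 centred log2 CPM values was 0.14 and 0.095 in the shscramble libraries and -0.18 and -0.091 in the shADAR1 libraries. The genes with a mean of at least 50 CPM whose 4 centred values lay nearest to that profile, among 4364 candidates, were GSPT1, TMED7, PIM1, TMEM43 and DNAJC11, with root mean square differences of 0.0188, 0.0238, 0.0239, 0.0240 and 0.0246 on the log2 scale. With 4 libraries such a likeness is a description and no more.

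Levels of different genes were compared on FPKM, which the authors scaled for transcript length and depth. Over the 4 libraries B2M had the highest mean at 4399 FPKM (range 3521 to 5352), followed by HLA-B at 1190 FPKM (1022 to 1445), HLA-C at 774 FPKM (627 to 970), HLA-E at 388 FPKM (324 to 441) and HLA-F at 124 FPKM (109 to 137). The loading machinery came next, with TAPBP at 84.4 FPKM (77.6 to 89.8), TAP1 at 80.7 FPKM (57.9 to 102) and TAP2 at 52.5 FPKM (45.5 to 57.8). NLRC5 was lowest at 14.4 FPKM (13.2 to 15.4). TAPBP and TAP1 were the only neighbours in this order whose ranges overlapped. B2M transcripts outnumbered the summed heavy chains in each library, with FPKM ratios of 1.18 and 2.19 in shscramble and 1.56 and 2.38 in shADAR1, again higher in the replicate 2 libraries.

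**Figure D3:**
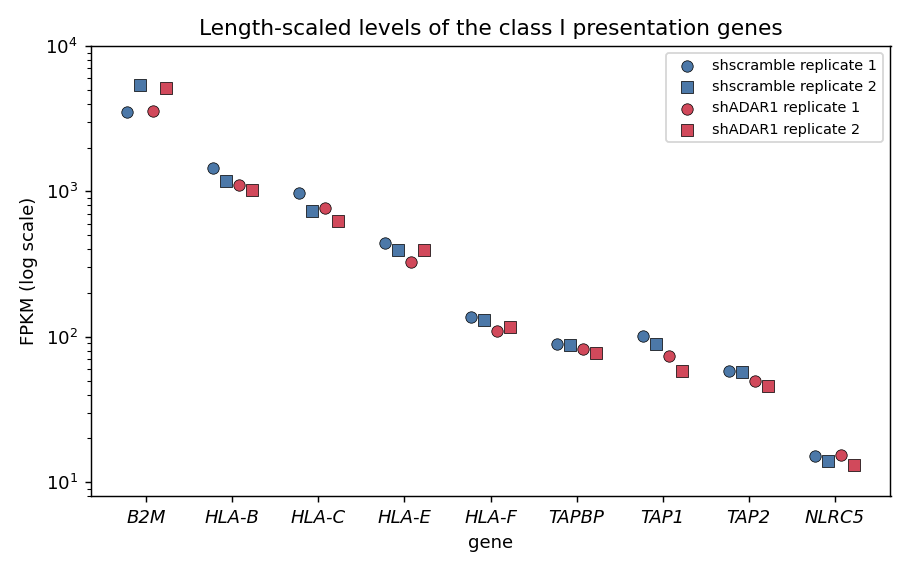
FPKM of each class I gene in each library on a log axis, ordered by mean. Levels ran from 4399 FPKM for B2M to 14.4 FPKM for NLRC5, and the 4 libraries of TAP1 overlapped those of TAPBP.

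Other genes of the class I pathway showed no common direction of this size. Of 8 genes of peptide loading and trimming, 4 had a log2 fold change below 0 and 4 above, with a median of -0.0028. Of the 8, 2 were lower without overlap, against 12.6% of all tested genes. CALR (calreticulin), the lectin chaperone of the loading complex, was at 1113 and 1026 CPM in shscramble and 773 and 967 CPM in shADAR1, a log2 fold change of -0.30 ± 0.21 (SE). Its membrane-bound relative CANX had -0.13, and the trimming peptidases ERAP1 and ERAP2 had 0.13 and 0.10, all with overlapping groups. Each of these 3 changed sign with a library left out, CANX to 0.014 without shscramble replicate 2, ERAP1 to -0.050 without shscramble replicate 1 and ERAP2 to -0.42 without shADAR1 replicate 1. CALR had -0.14 without shADAR1 replicate 1. Of 10 genes of peptide generation in the cytosol, 7 were below 0 and 3 above, with a median of -0.098 (-0.058 without shADAR1 replicate 1, -0.16 without shADAR1 replicate 2). Of the 10, 3 were lower without overlap, against 12.6% of all tested genes. The log2 fold changes named by the rule were -0.43 for the aminopeptidase LAP3, 0.28 for the peptidase TPP2, and -0.21 and -0.18 for the immunoproteasome subunits PSMB9 and PSMB8. None of these 18 genes was called, and 0 of the 18 reached an unadjusted p under 0.05 in edgeR.

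The 13 factors that act on class I promoters had a median log2 fold change of -0.15, with 8 below 0 and 5 above. Of the 13, 4 were lower without overlap, against 12.6% of all tested genes. IRF1 and IRF2, which bind interferon response elements, had -0.25 each, and RFXAP, a subunit of the RFX complex, had -0.24. Without shADAR1 replicate 1 the median of the list was -0.077, and IRF2 and RFXAP had -0.077 each. IRF1 had -0.061 without shADAR1 replicate 2, and RFXAP had -0.038 without shscramble replicate 2. None of the 13 was called.

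The class I genes were set beside 20 core interferon-induced genes, which earlier results of these data had already shown to be lower in the shADAR1 libraries. All 20 had a log2 fold change below 0, with a median of -1.06. Of the 20, 15 were lower without overlap, against 12.6% of all tested genes. An unadjusted p under 0.05 in edgeR was reached by 10, against 0.779% of all tested genes that were lower at that level. Of the 20, 0 were called. MX1, an antiviral GTPase, measured 565 and 519 CPM in shscramble and 293 and 60.8 CPM in shADAR1. Its log2 fold change was -1.62, and those of IFI44L, the interferon regulatory factor IRF7 and IFI27 were -1.87, -1.34 and -1.31. These genes were named for the largest absolute values of the list among genes with a mean of at least 5 CPM. Others lay no further from 0 than TAP1 at -0.58, with STAT2 and IFITM1 at -0.19 each, IFIT2 at -0.49 and IFIH1 at -0.58. The order of the 2 shADAR1 libraries was also described in the 2 groups of genes. Replicate 2 lay below replicate 1 in 20 of 20 core interferon genes and in 3 of 9 class I genes (HLA-B, TAP1 and NLRC5). The share over all tested genes was not counted. The 2 shADAR1 values were close in HLA-B (1641 and 1627 CPM), HLA-C (941 and 945 CPM) and TAPBP (247 and 252 CPM). Their order in these genes carries little weight. Without shADAR1 replicate 1 the median of the core list was -1.80 and that of the class I genes -0.20, and without shADAR1 replicate 2 they were -0.59 and -0.32. ADAR itself was lower in shADAR1 replicate 2 than in replicate 1. What part interferon signaling has in the class I values was not tested.

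**Figure D4:**
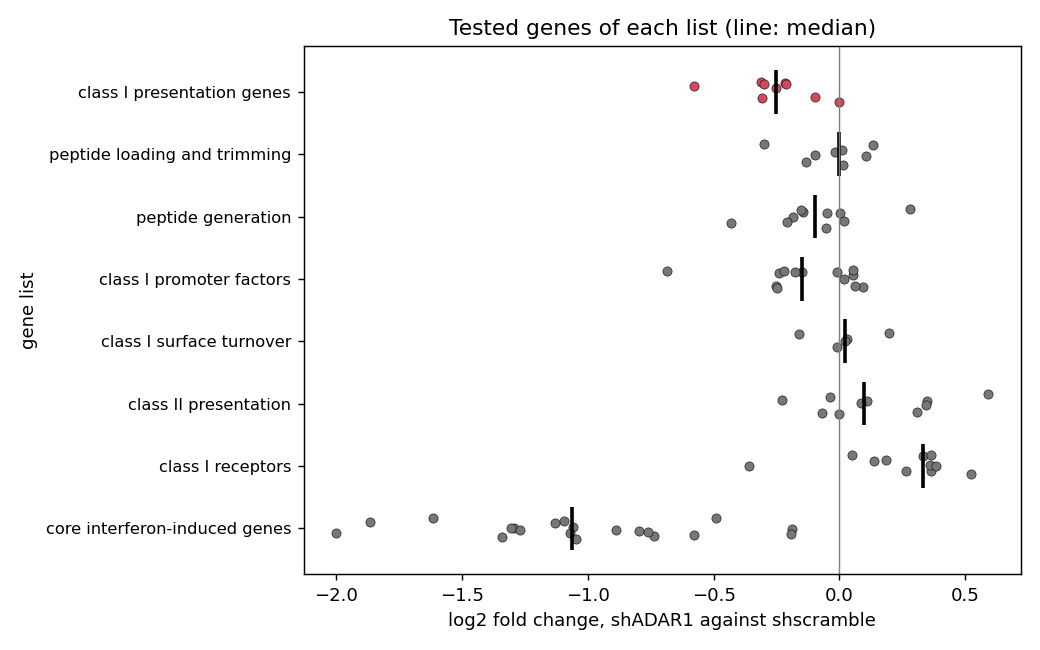
Log2 fold changes, shADAR1 against shscramble, of the tested genes of each list, with a line at the median and class I genes in red. The class I genes had a median of -0.25, between that of the promoter factors at -0.15 and that of the core interferon-induced genes at -1.06, and the class I receptors had a median of 0.33.

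Most tested receptors for class I molecules had a log2 fold change above 0. Of 13 listed receptors 11 were tested, 10 above 0 and 1 below, with a median of 0.33. Both shADAR1 libraries lay above both shscramble libraries for 4, against 13.3% of all tested genes. Several were barely expressed, with mean CPM of 0.212 for KIR2DL1, 0.571 for KLRC3, 2.26 for KIR3DL1, 2.66 for KIR2DL3 and 4.12 for KIR2DS4. KLRC2 was at 5.82 CPM. KLRC1 (NKG2A), at 158 CPM, and KLRD1, at 84.6 CPM, had log2 fold changes of 0.185 and 0.051 with overlapping groups. CD160, a receptor for several class I molecules, measured 61.7 and 78.5 CPM in shscramble and 91.6 and 91.4 CPM in shADAR1, a log2 fold change of 0.38 ± 0.21 (SE). KLRC2 (NKG2C), which reads HLA-E, had 0.36, the inhibitory receptor LILRB1 had 0.33, and KIR2DL4 had 0.26. None had an unadjusted p under 0.05 in edgeR. The median was 0.094 without shADAR1 replicate 1 and 0.46 without shADAR1 replicate 2.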

How the data were processed

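Poly(A)-selected RNA of 4 NK-92 libraries, 2 shscramble and 2 shADAR1, was analysed. The authors deposited estimated counts per gene, not normalized, and FPKM values scaled by them for transcript length and depth. Per the labels reads were filtered with fastp 0.18.0; the aligner, the counting program, the strand setting and the genome build are not given in the sources used here. Of the 20323 identifiers, 20301 matched a gene symbol. Between 17.7% and 18.4% of nonzero estimated counts were not whole.

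Estimated counts were rounded to whole numbers, filtered with filterByExpr (minimum count 10); TMM scaling and the quasi-likelihood test came from edgeR 4.0.16 in R 4.3.3, without covariates. A gene was called at a Benjamini-Hochberg adjusted p under 0.05 over 11810 genes and a fold change of at least 1.5. The standard error is the size of the log2 fold change over the square root of the F statistic. The script was tested on simulated data. DESeq2 1.42.0, limma 3.58.1 on log2(FPKM + 0.5) and log2(FPKM + 0.1), RLE and upper quartile scaling, no filter, a mean of 50 counts, other thresholds, a replicate block and each library left out were alternatives. Counting error is small at this depth, so the precision is set by 2 libraries per group.

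The 9 genes and all gene lists were chosen with earlier results of these data known. From each list at most 4 genes with the largest absolute log2 fold change and a mean of at least 5 CPM were named. Further genes of the receptor, class II and core interferon lists are given beside them to show the range of levels or fold changes. Of the genes so named, 1 is not reported here. Lists were described by counts and medians, with no test. Promoter windows came from RefSeq on GRCh38.p14, gene spans from GENCODE 29 on GRCh38.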

Additional observations from a re-analysis of the deposited data

How the results depend on the processing

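None of the 9 class I genes was called under any of 14 alternatives, and the smallest adjusted p of any of them was 0.267. Of 108 log2 fold changes over 12 alternative fits, 103 stayed below 0, and 7 genes were below 0 in each fit. B2M lay between -0.32 and 0.10 with each library left out, at 0.10 without shADAR1 replicate 1 and 0.071 without shscramble replicate 2. NLRC5 was 0.0066 with a mean of at least 50 counts, 0.0091 under upper quartile scaling, and between -0.041 and 0.034 with each library left out, positive without shADAR1 replicate 2. The median of the class I genes was -0.20 without shADAR1 replicate 1 and -0.32 without shADAR1 replicate 2. Over the fits the median of all tested genes stayed between -0.011 and 0.021.

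Over all genes 0 were called, with 293 at an unadjusted p under 0.05 in edgeR and 289 in DESeq2, and 213 when the unadjusted p was combined with the fold change. Leaving out a library gave 1 to 47 calls: 16 without shADAR1 replicate 1, 1 without shADAR1 replicate 2, 47 without shscramble replicate 1 and 2 without shscramble replicate 2, where the lone library of a group was assumed to vary like the others. With the replicate number as a block (replicate block), 13 genes were called and none was a class I gene. Same-numbered libraries deviated together with a correlation of 0.308 over 11810 genes, but with 2 pairs this does not establish that the numbers pair the samples.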

Other observations

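Genes next to the class I pathway were also listed. Of 9 class I-like chains 2 were tested, and MR1, which presents vitamin metabolites, measured 59.7 and 72.9 CPM in shscramble and 53.0 and 66.4 CPM in shADAR1. The groups overlapped, and the log2 fold change was -0.15. Of 8 NKG2D ligands, stress-induced relatives of class I chains, 3 were tested. MICB measured 77.0 and 75.5 CPM in shscramble and 54.3 and 71.4 CPM in shADAR1, without overlap and with a log2 fold change of -0.28, while MICA was near 6 CPM in each library with a log2 fold change of 0.0024. Of 6 genes of class I surface turnover 5 were tested, with a median of 0.022, 2 below 0 and 3 above. MARCHF1 had 0.20, TMEM127 -0.16, MARCHF9 0.029 and WWP2 0.022.

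The class II pathway showed no common direction. Its 10 tested genes had a median log2 fold change of 0.098, with 4 below 0 and 6 above. Those below 0 were the most abundant of the list, with mean CPM of 229 for CD74, 62.5 for CTSS and 24.7 each for HLA-DPA1 and HLA-DQB1. Those above 0 included HLA-DQA1, HLA-DRA and HLA-DRB1, with mean CPM of only 0.413, 0.594 and 2.13. HLA-DMB, a chaperone of class II peptide loading, measured 16.7 and 15.1 CPM in shscramble and 20.4 and 20.0 CPM in shADAR1, higher without overlap and with a log2 fold change of 0.35. CTSS, the protease that trims the invariant chain, had -0.23, HLA-DPB1 0.11 and HLA-DMA 0.085. Without shADAR1 replicate 2 the median of the list was -0.10, so its sign rested on that library. None of the genes of these 4 lists was called, and none had an unadjusted p under 0.05 in edgeR.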
